A study of Mus musculus with 48 samples.

Results

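Tmc3, Vill, Htr2c and Ankrd35 are 4 of the 48795 genes counted in the striatum of mice that carry the Q140 allele of Huntingtin with or without Msh3. They were chosen by their measured change: each still differed between Q140 Msh3-/- and Msh3-/- mice, after differing between Q140 and wild type mice. Q140 mice carry an expanded CAG repeat, knocked into 1 of their copies of the Huntingtin gene. RNA was sequenced from the corpus striatum of C57BL/6 mice at 6 months of age in 48 libraries of 6 groups. These were wild type (7 libraries), Q140 (8), Msh3+/- (9), Q140 Msh3+/- (8), Msh3-/- (8) and Q140 Msh3-/- (8), each of females and males. The labels do not say that each library is a separate mouse, so the p-values below measure the spread between these libraries, which may in part be technical.

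Msh3 encodes a mismatch repair protein that binds small loops in DNA and that promotes the lengthening of CAG repeats in the neurons of the striatum during life. Medium spiny neurons, the projection neurons of the striatum, lengthen the repeat the most and lose the RNA of their identity genes in Huntington's disease models. The comparison of Q140 with its control on each Msh3 background asks how much of a gene's change remains when Msh3 is reduced or lost.

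Htr2c encodes the serotonin 2C receptor, which signals through Gq and phospholipase C, is edited at the RNA level and is known for very high expression in the choroid plexus. Tmc3 encodes a transmembrane channel-like protein of the family that holds the mechanotransduction channel subunits of inner ear hair cells. Vill encodes a villin-like protein of the villin and gelsolin family, whose members bind, cap or sever actin filaments. Ankrd35 encodes a protein with ankyrin repeats. On GRCm38 (GENCODE M21) all 4 are protein-coding genes on the plus strand: Tmc3 (ENSMUSG00000038540) at chr7:83584927-83625614, Vill (ENSMUSG00000038775) at chr9:119052778-119071525, Htr2c (ENSMUSG00000041380) at chrX:146962513-147197277 and Ankrd35 (ENSMUSG00000038354) at chr3:96670131-96691032.

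Each of the 4 genes was chosen for its change with Q140, which was upwards in 3 and downwards in 1. The 200 bases before the earliest RefSeq start of each are shown (RefSeq, GRCm38.p6, plus strand, 5′ to 3′). Capitals mark matches to the motifs searched on both strands. The windows are chr7:83584704-83584903 for Tmc3, chr9:119052529-119052728 for Vill, chrX:146962264-146962463 for Htr2c and chr3:96669931-96670130 for Ankrd35.
Tmc3: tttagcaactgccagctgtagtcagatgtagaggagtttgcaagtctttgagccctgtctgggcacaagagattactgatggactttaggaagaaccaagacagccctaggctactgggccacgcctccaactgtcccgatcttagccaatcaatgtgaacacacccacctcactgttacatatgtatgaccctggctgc
Vill: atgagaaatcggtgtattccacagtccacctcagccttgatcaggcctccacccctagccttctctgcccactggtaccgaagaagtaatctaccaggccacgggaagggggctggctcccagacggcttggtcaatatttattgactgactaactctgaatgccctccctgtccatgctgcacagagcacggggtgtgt
Htr2c: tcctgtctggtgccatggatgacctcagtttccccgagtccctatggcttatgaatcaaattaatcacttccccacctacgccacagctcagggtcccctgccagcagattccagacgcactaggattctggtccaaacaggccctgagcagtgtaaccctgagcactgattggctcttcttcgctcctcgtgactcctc
Ankrd35: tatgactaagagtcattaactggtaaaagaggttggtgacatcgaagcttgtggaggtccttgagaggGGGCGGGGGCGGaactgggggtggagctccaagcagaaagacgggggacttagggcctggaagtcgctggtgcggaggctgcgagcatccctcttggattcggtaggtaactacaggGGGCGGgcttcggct
5 motifs were searched in the 300 bases around each start (250 before and 50 after it), and the share of 32851 windows of the same length that hold each is given beside it. The GC box, spelled GGGCGG, was present in 35.7% of them. Ankrd35 alone of the 4 genes held it, with 4 matches, of which 3 lie in the stretch shown, beginning 132, 126 and 15 bases before the start. None of the 4 windows held any of the other motifs. These were the TATA box, spelled TATAAA, found in 13.6% of all windows, and the E-box, a palindrome spelled CACGTG, found in 7.15%. The cAMP response element, spelled TGACGTCA, was found in 1.79% and the Egr site, spelled GCGTGGGCG, in 0.612%. The Ankrd35 stretch had a GC content of 58.5% and 10 CpG pairs, the Htr2c stretch 54.5% and 5, the Vill stretch 55% and 5, and the Tmc3 stretch 50% and 2.

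Library totals ran from 33.7 to 52.8 M counts (median 45.0 M, with M for 1e6), and 19975 genes had enough counts to be tested, the 4 among them. The Msh3 count rose with the labelled loss of Msh3. It was 31.0 ± 1.46 CPM (counts per 1e6 of the scaled library total; mean ± SD, n = 7) in wild type, 77.4 ± 4.74 (n = 9) in libraries labelled Msh3+/- and 119.7 ± 7.03 (n = 8) in those labelled Msh3-/-. It separated the 3 Msh3 genotypes in the order of the labels, but a count over the whole gene does not show whether functional Msh3 was lost, so every Msh3 genotype below is the labelled one. Every library carried the markers of striatal medium spiny neurons, whose 26 shared genes summed to between 12522 and 24690 CPM. Markers of choroid plexus and ependyma, tissue next to the striatum that expresses Htr2c strongly, stood apart in 3 libraries. Their 16 genes summed to 4635 CPM in Q140 Msh3+/- F1, 677 in wild type M2 and 282 in wild type M1, against 27.9 to 111 in the other 45. Results for Htr2c are therefore given with and without these libraries.

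All 4 genes were changed by Q140 on the Msh3+/- background, whose 17 libraries took no part in choosing them. Tmc3, Vill and Htr2c rose 1.65-fold, 1.54-fold and 1.36-fold and Ankrd35 fell to 0.610 of its control level. Each passed edgeR's quasi-likelihood test with Benjamini-Hochberg adjustment over all genes tested at a threshold of 0.05. In that comparison 6.45% of all genes passed (1289 of 19975), 2.96% as rises (592) and 3.49% as falls (697). Of the 15 genes called between Q140 Msh3-/- and Msh3-/-, 14 passed, so most genes chosen this way pass here. Scaled by library totals in place of TMM, which moves the median log2 difference of all genes from 0.004 to 0.056, the same test gave 1796 rises and 413 falls, with all 4 genes called in the same direction. By limma on log2(FPKM + 0.1), from the deposited FPKM values (fragments per kilobase and library total) and with its own filter on low values, the split was 1769 and 419, and the 3 of the genes that could be tested there kept their direction and their call.

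Htr2c had the highest level of the 4 per unit of length, at 6.95 FPKM in wild type, against 3.98 for Ankrd35, 0.983 for Vill and 0.146 for Tmc3. Its CPM ran from 49.6 to 79.99 with a median of 64.2 in wild type, and from 87.8 to 112.6 with a median of 97.6 in Q140. The 8 Q140 libraries lay above all 7 wild type libraries, and both groups took part in choosing the genes. In Msh3+/- Htr2c ran from 55.5 to 73.8 CPM (median 70.9), and in Q140 Msh3+/- from 76.2 to 102.0 CPM (median 96.0). All 8 Q140 Msh3+/- libraries were higher than every Msh3+/- library. The tested log2 difference was 0.45 (SE 0.069, 95% interval 0.31 to 0.58), with an edgeR adjusted p of 2.65e-05. In Msh3-/- it ran from 53.4 to 64.2 CPM (median 57.7), and in Q140 Msh3-/- from 60.1 to 84.9 CPM (median 78.4). Here 7 of 8 Q140 libraries lay above every control, and the lowest lay inside the control range.

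The Htr2c level of Q140 Msh3+/- F1, the library with the highest choroid plexus sum, was 101.0 CPM, inside the range of the other Q140 Msh3+/- libraries. Without that library the log2 difference was 0.42 (SE 0.071, edgeR adjusted p = 1e-04). Without all 3 libraries that stood apart, the Htr2c difference was 0.68 between Q140 and wild type, 0.42 on Msh3+/- and 0.40 on Msh3-/-. In the tested comparison 12 of the 16 choroid plexus and ependyma markers were called higher, with a median log2 difference of 3.10. This rests on Q140 Msh3+/- F1: without it none of the 16 was called, the median was -0.006, and the other libraries of the group summed to between 44.2 and 89.9 CPM. With the means of group and sex removed, log2 Htr2c and the log2 marker sum correlated at r = 0.19 over the 48 libraries. The same r was 0.32 for Ankrd35, -0.21 for Vill and -0.14 for Tmc3.

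**Figure D1:**
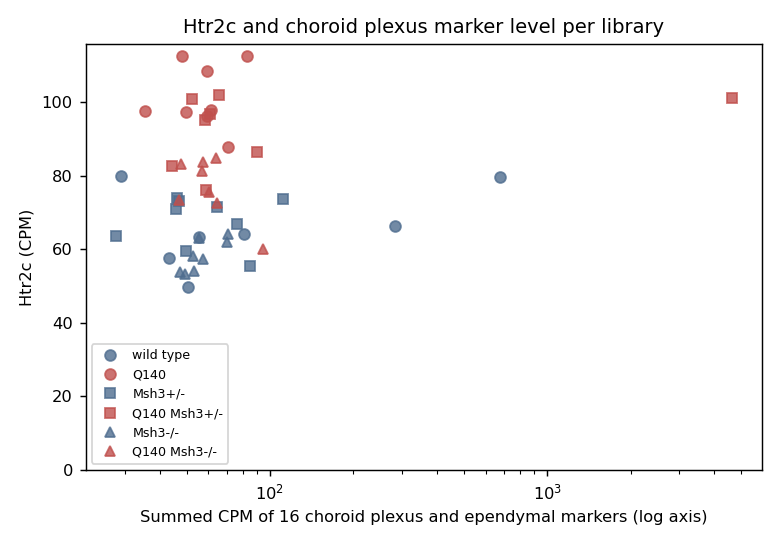
Htr2c in CPM (vertical) against the summed CPM of 16 choroid plexus and ependyma markers (horizontal, log scale), 1 point per library, red with Q140 and blue without, with a shape for each Msh3 genotype. Q140 Msh3+/- F1 lies far to the right at 4635 CPM of markers, and its Htr2c level of 101.0 CPM lies among those of its group.

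Vill, the villin-like gene, ran from 3.14 to 5.43 CPM (median 4.86) in wild type and from 6.94 to 10.6 CPM (median 8.26) in Q140. In Msh3+/- it ran from 3.75 to 5.16 CPM (median 4.38), and in Q140 Msh3+/- from 5.57 to 7.49 CPM (median 6.76). Neither pair of ranges overlapped. The tested log2 difference was 0.63 (SE 0.0885, 95% interval 0.45 to 0.81), with an edgeR adjusted p of 5.17e-06. On log2(FPKM + 1) it was 0.37, still past the threshold; adding 1 compresses the changes of genes at this level. In Msh3-/- Vill ran from 3.38 to 4.89 CPM (median 4.32) and in Q140 Msh3-/- from 4.41 to 6.97 CPM (median 5.78), with 7 of 8 Q140 libraries above every control.

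Tmc3 had the fewest reads, 38 to 181 per library, and the widest relative spread. It ran from 0.888 to 1.65 CPM (median 1.41) in wild type and from 1.72 to 3.83 CPM (median 3.12) in Q140. The ranges did not overlap, but the Q140 libraries spread over more than the distance between the groups. In Msh3+/- it ran from 1.20 to 2.06 CPM (median 1.47), and in Q140 Msh3+/- from 1.80 to 3.05 CPM (median 2.58). Here 7 of 8 Q140 libraries lay above every control, and Q140 Msh3+/- M4, at 1.80 CPM, lay below the highest control, Msh3+/- F5, at 2.06 CPM. Msh3+/- F5 was also the library with the most RNA of cortical neuron markers, at a sum of 331 CPM over 14 genes against a group median of 135. Without Msh3+/- F5 the Tmc3 difference was 0.78. Whether cortical markers and Tmc3 are related was not tested. The tested log2 difference was 0.72 (SE 0.137, 95% interval 0.447 to 0.999), with an edgeR adjusted p of 0.000481. In Msh3-/- Tmc3 ran from 0.921 to 1.45 CPM (median 1.37) and in Q140 Msh3-/- from 1.52 to 2.65 CPM (median 1.93), without overlap.

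A transcript on the opposite strand, Gm16638, covers 43.9% of the exon bases of Tmc3 in GENCODE M21, to the end of its last exon, and was more abundant, at 15.3 ± 2.54 CPM (SD, n = 7) in wild type. Whether the counting used strand is not given in the sources used here, and without it the reads of the pair cannot be told apart. Gm16638 differed by a log2 of 0.02 (SE 0.0969, edgeR adjusted p = 0.949) between Q140 Msh3+/- and Msh3+/-, where Tmc3 rose by 0.72. It was called in none of the 3 Q140 comparisons, but its mean was higher with Q140 on the other backgrounds. The means were 15.3 ± 2.54 CPM in wild type and 18.4 ± 2.49 in Q140. They were 15.1 ± 1.84 CPM in Msh3-/- and 17.1 ± 2.69 in Q140 Msh3-/- (SD). Whether Gm16638 reads enter the Tmc3 counts was not tested.

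Ankrd35 was the gene that fell. It ran from 15.2 to 18.2 CPM (median 16.4) in wild type and from 7.07 to 9.61 CPM (median 7.76) in Q140. In Msh3+/- it ran from 13.8 to 18.2 CPM (median 17.03), and in Q140 Msh3+/- from 8.81 to 11.9 CPM (median 9.62). No Q140 library reached its controls on either background. The tested log2 difference was -0.71 (SE 0.0684, 95% interval -0.85 to -0.58), with an edgeR adjusted p of 1.18e-09. In Msh3-/- Ankrd35 ran from 14.6 to 17.6 CPM (median 16.5) and in Q140 Msh3-/- from 9.45 to 14.6 CPM (median 12.6). Those ranges met at 14.6 CPM without crossing. Across all genes, 0.586% (117) had ranges that did not overlap between Q140 Msh3+/- and Msh3+/-, and Vill, Htr2c and Ankrd35 were among them. No such share was computed for the other backgrounds, whose libraries chose the genes, so separation there follows in part from the choice.

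**Figure D2:**
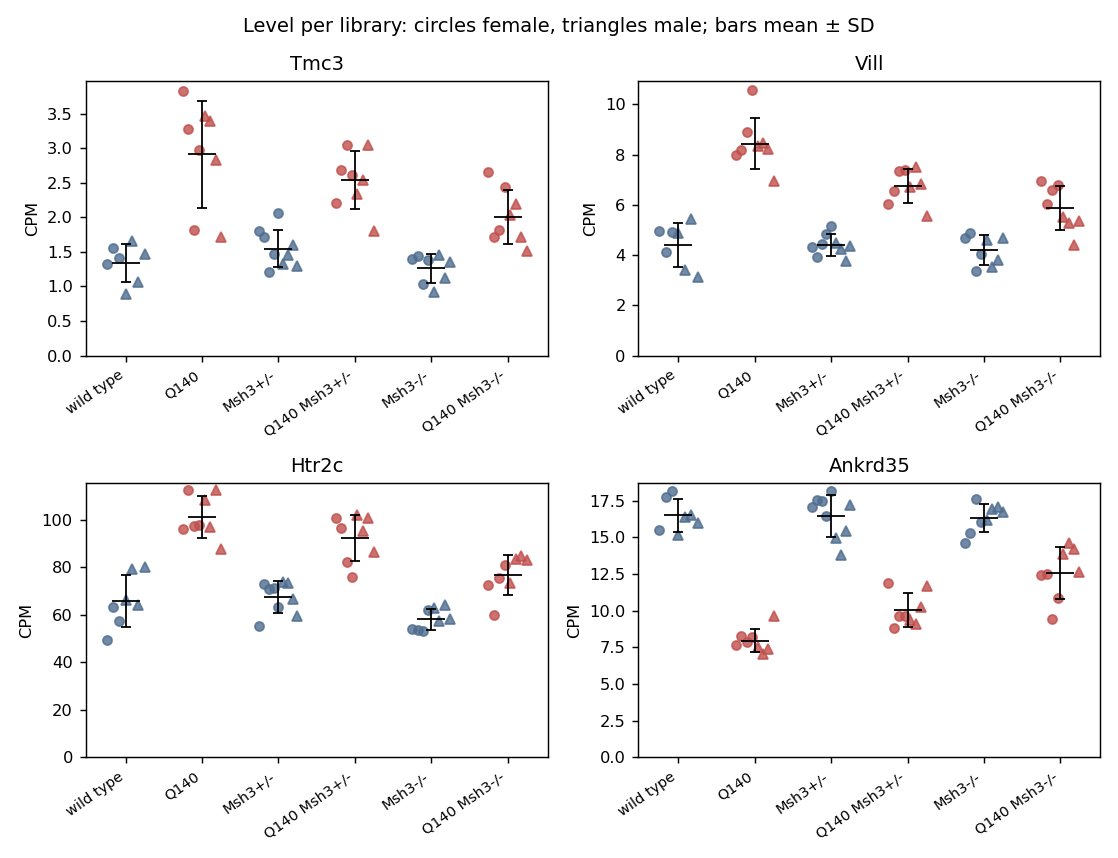
CPM of each of the 4 genes in every library (circles female, triangles male) by genotype group, red with Q140 and blue without, with the group mean and SD (bars). Tmc3, Vill and Htr2c are higher and Ankrd35 lower in the 3 Q140 groups, and the distance from the controls is greatest in Q140 and least in Q140 Msh3-/-.

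In all 4 genes the Q140 groups kept 1 order: the level was farthest from control in Q140, nearer in Q140 Msh3+/- and nearest in Q140 Msh3-/-. The 3 groups without Q140 lay together at the other end for every gene. The means from lowest to highest for Htr2c were 58.2 ± 4.38 CPM in Msh3-/-, 65.8 ± 11.0 in wild type, 67.6 ± 6.68 in Msh3+/-, 76.8 ± 8.28 in Q140 Msh3-/-, 92.6 ± 9.71 in Q140 Msh3+/- and 101.2 ± 8.89 in Q140. Neighbours in that order overlapped in range throughout. The same was true of Vill, with 4.1999 ± 0.590 CPM in Msh3-/-, 4.39 ± 0.428 in Msh3+/-, 4.40 ± 0.864 in wild type, 5.87 ± 0.883 in Q140 Msh3-/-, 6.74 ± 0.686 in Q140 Msh3+/- and 8.44 ± 1.02 in Q140. It was also true of Tmc3, with 1.26 ± 0.207 CPM in Msh3-/-, 1.34 ± 0.271 in wild type, 1.55 ± 0.274 in Msh3+/-, 2.01 ± 0.391 in Q140 Msh3-/-, 2.54 ± 0.418 in Q140 Msh3+/- and 2.91 ± 0.769 in Q140. Ankrd35 ran the other way, from 7.95 ± 0.782 CPM in Q140 through 10.04 ± 1.15 in Q140 Msh3+/- and 12.6 ± 1.75 in Q140 Msh3-/- to 16.3 ± 0.981 in Msh3-/-, 16.4 ± 1.44 in Msh3+/- and 16.5 ± 1.12 in wild type. The step from Q140 Msh3-/- to Msh3-/- was its only step between neighbours whose ranges did not overlap. All values after ± are SDs over the 7 to 9 libraries of a group.

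The size of the Q140 change on each background is given as a description, since the choice of the genes used the Q140 and Q140 Msh3-/- libraries with their controls. Between Q140 and wild type 19.9% of all genes were called (9.64% higher, 10.2% lower; 1926 and 2043 genes, or 5076 and 1104 with library totals in place of TMM), and between Q140 Msh3-/- and Msh3-/- 0.0751% (0.0501% higher, 0.025% lower). The log2 difference of Tmc3 was 1.11 (SE 0.149) against wild type, 0.72 on Msh3+/- and 0.67 (SE 0.146) on Msh3-/-. That of Vill was 0.93 (SE 0.0946), 0.63 and 0.48 (SE 0.0926) in the same order. The Htr2c difference was 0.64 (SE 0.0742), 0.45 and 0.40 (SE 0.0716). The Ankrd35 difference was -1.05 (SE 0.0731), -0.71 and -0.38 (SE 0.0696).

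**Figure D3:**
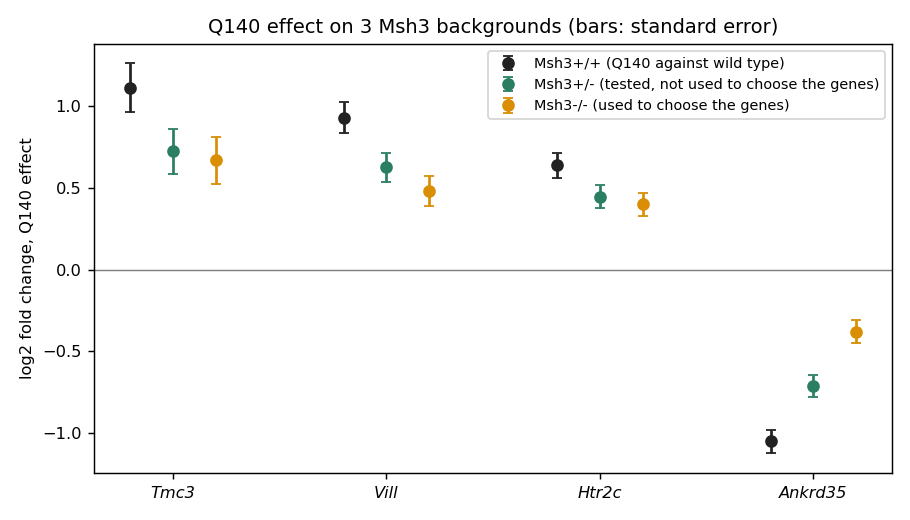
Log2 difference between each Q140 group and its control (vertical) for each of the 4 genes (horizontal) on the 3 Msh3 backgrounds (colours), with bars of 1 standard error to each side. Ankrd35 goes from -1.05 to -0.38. Between Msh3+/- and Msh3-/- Tmc3 goes from 0.72 to 0.67 and Htr2c from 0.45 to 0.40, with overlapping bars. The genes were chosen in part for passing the threshold on Msh3-/-, which can enlarge the changes drawn there.

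The changes on Msh3+/- and Msh3-/- are also given as a share of the log2 change between Q140 and wild type. No standard error was computed for the shares. Both parts of each ratio carry one, so small differences in share between genes cannot be read. On Msh3+/- the share was 65.0% for Tmc3, 67.6% for Vill, 69.9% for Htr2c and 67.8% for Ankrd35. On Msh3-/- it was 60.0% for Tmc3, 51.7% for Vill, 62.6% for Htr2c and 36.0% for Ankrd35. The Q140 change on Msh3-/- minus that on Msh3+/- was -0.06 (SE 0.201) for Tmc3 and -0.05 (SE 0.0994) for Htr2c, both smaller than their standard errors. It was -0.15 (SE 0.128) for Vill and 0.33 (SE 0.0973) for Ankrd35. The genes were chosen in part for passing the threshold on Msh3-/-, which can enlarge their change and their share there. The small differences of Tmc3 and Htr2c therefore cannot show whether more of the change is lost on Msh3-/- than on Msh3+/-. The Q140 change on Msh3-/- minus that with intact Msh3 was -0.44 (SE 0.208) for Tmc3, -0.45 (SE 0.132) for Vill, -0.24 (SE 0.103) for Htr2c and 0.67 (SE 0.101) for Ankrd35. Ankrd35 was the gene with the smallest share on Msh3-/- and the largest of these differences.

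Msh3-/- alone differed from wild type by a log2 of -0.16 (SE 0.0741) for Htr2c, -0.09 (SE 0.154) for Tmc3, -0.08 (SE 0.0966) for Vill and -0.01 (SE 0.0711) for Ankrd35. Set against wild type, Q140 Msh3-/- differed by 0.24 (SE 0.0740) for Htr2c, against 0.40 when set against Msh3-/-. The difference from wild type was 0.57 (SE 0.151) for Tmc3, 0.40 (SE 0.0955) for Vill and -0.39 (SE 0.0717) for Ankrd35, the last almost the same as against Msh3-/-. Msh3+/- alone differed from wild type by 0.06 for Htr2c, 0.19 for Tmc3, -0.02 for Vill and -0.003 for Ankrd35. Directly against Q140 Msh3+/-, Q140 Msh3-/- differed by -0.27 (SE 0.0709) for Htr2c, -0.34 (SE 0.139) for Tmc3, -0.21 (SE 0.0900) for Vill and 0.32 (SE 0.0706) for Ankrd35.

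For scale, the 3969 genes called between Q140 and wild type had a median change in their own direction of 0.23 there, 0.11 on Msh3+/- and 0.05 on Msh3-/-. Among the 352 of them that changed at least as much as Htr2c, the least changed of the 4, the medians were 0.90, 0.41 and 0.25. The 352 were chosen by their change against wild type, and the 4 genes also by theirs on Msh3-/-. A gap between them on Msh3-/- therefore follows in part from these choices. The medians over all genes tested were 0.014, 0.004 and 0.002. At an adjusted p of 0.05, 15 genes were called on Msh3-/-. All 15 were also called between Q140 and wild type, with the same sign on all 3 backgrounds, and 14 were called on Msh3+/-. Tmc3 was the last of the 15 by p, with a log2 difference of 0.67 on Msh3-/-. The nearest genes outside were N4bp3, at -0.28 (SE 0.0633), and Pcdhga2, at 0.29 (SE 0.0646).

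**Figure D4:**
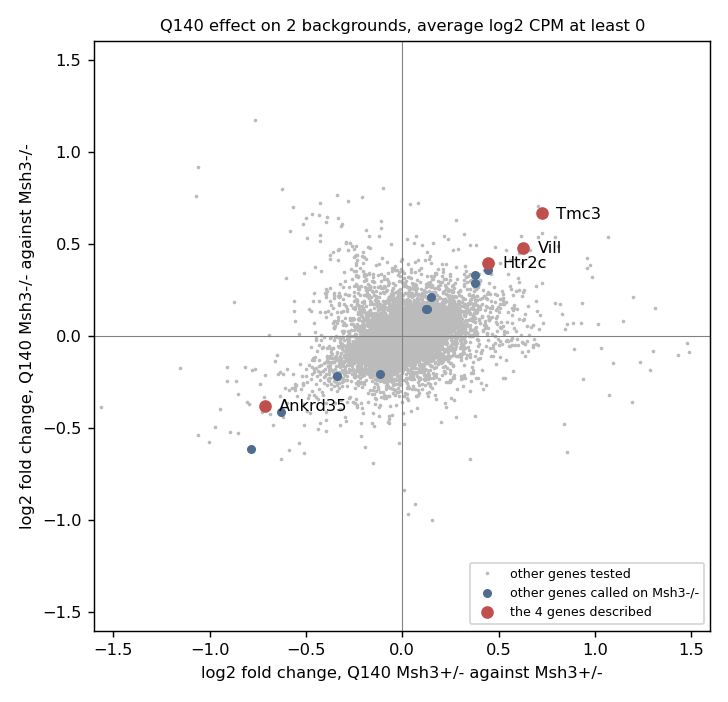
Log2 difference between Q140 Msh3-/- and Msh3-/- (vertical) against that between Q140 Msh3+/- and Msh3+/- (horizontal), 1 point for each of 15406 genes averaging a log2 CPM of 0 or more. A further 13 such genes lie outside the axes. The 4 genes (red, named) and the other genes called on Msh3-/- (blue) have the same sign on both backgrounds.

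No difference between the sexes was detected in the tested changes. On Msh3+/- the log2 change in females and males was 0.68 and 0.78 for Tmc3, 0.59 and 0.66 for Vill, 0.42 and 0.49 for the X-linked Htr2c, and -0.80 and -0.60 for Ankrd35. The difference, female minus male, was -0.10 (SE 0.289) for Tmc3, -0.06 (SE 0.179) for Vill, -0.07 (SE 0.136) for Htr2c and -0.19 (SE 0.121) for Ankrd35, with edgeR adjusted p from 0.970 to 0.986. Of 20780 genes in that fit 0% were called by edgeR, and 1069 had an unadjusted p under 0.05, none of the 4 among them.

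Of 26 markers common to all medium spiny neurons, the main projection neurons of the striatum, 25 fell between Q140 and wild type, 21 on Msh3+/- and 1 on Msh3-/-, with median log2 differences of -0.44, -0.25 and -0.12. Their summed level had a median of 22275 CPM in wild type, 14938 in Q140, 22617 in Msh3+/-, 17800 in Q140 Msh3+/-, 22255 in Msh3-/- and 20070 in Q140 Msh3-/-. The order of the Q140 groups was thus the same as for Ankrd35. Of 8 markers of the D2 type 6 fell between Q140 and wild type, 4 on Msh3+/- and 1 on Msh3-/-, while of 10 markers of the D1 type 3 rose and 2 fell, 1 rose and 2 fell, and none was called. Of 12 markers each, 6 of astrocytes, 5 of endothelial or mural cells and 3 of microglia fell between Q140 and wild type, and none of these was called on Msh3+/- or Msh3-/-. The medians of these 3 lists between Q140 and wild type were -0.19, -0.21 and -0.15. Over all genes 10.2% fell between Q140 and wild type, 3.49% on Msh3+/- and 0.025% on Msh3-/-. Library totals in place of TMM changed the falls over all genes between Q140 and wild type from 2043 to 1104. In bulk tissue, fewer cells of a type and less RNA per cell cannot be told apart, and the part of these cell types in the results for the 4 genes was not tested.

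Of 11 other serotonin receptors tested, none was called on Msh3+/- by edgeR, and 1 was called by limma on FPKM. The receptor nearest to the threshold was Htr2a, the related Gq-coupled receptor, at a log2 difference of 0.38 (SE 0.163, edgeR adjusted p = 0.169, unadjusted p = 0.0230), and the next was Htr1b, a Gi-coupled receptor, at -0.19 (SE 0.108, edgeR adjusted p = 0.343). Between Q140 and wild type 2 were called, both lower: Htr1b at -0.62 (SE 0.115) and Htr4, a Gs-coupled receptor named after its value was seen, at -0.86 (SE 0.158). These 2 of 11 stand beside 19.9% of all genes called there, 10.2% as falls. None was called on Msh3-/-, where 0.0751% of all genes were called and Htr2a differed by 0.49 (SE 0.169).

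A list of 21 genes held those of Gq signalling with RNA editing enzymes and scaffold partners of Htr2c. Of these, tested on Msh3+/-, 7 fell, 1 rose and the rest were not called, with a median of -0.09. Over all genes 3.49% fell and 2.96% rose on that background. The 8 calls were 5 without Msh3+/- F4, 5 with plate row as a covariate and 6 with library totals in place of TMM. Of the same 21 between Q140 and wild type 11 fell and none rose, with a median of -0.18. Over all genes 10.2% fell and 9.64% rose there. Rgs4, which speeds the switching off of Gq and Gi proteins, fell by 0.44 on the log2 scale on Msh3+/- (SE 0.0731, edgeR adjusted p = 8.04e-05). Plcb1, a phospholipase C that Gq activates, fell by 0.28 (SE 0.0554), and Prkcb, a protein kinase C that acts downstream of phospholipase C, fell by 0.38 (SE 0.0747). The gene that rose was Mpdz, a scaffold protein that binds the tail of the receptor, at 0.15 (SE 0.047, edgeR adjusted p = 0.0363). None of the 21 was called on Msh3-/-, where 0.0751% of all genes were called and where Htr2c was chosen for its change.

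Relatives of the other 3 genes are set beside the 6.45% of all genes called on Msh3+/-. Of 11 other TMC genes and partners of the hair cell channel tested on Msh3+/-, none was called; Tmc6 differed by 0.26 (SE 0.103, edgeR adjusted p = 0.130, unadjusted p = 0.0145) and Lhfpl5, a subunit of the hair cell complex, by 0.22 (SE 0.131, edgeR adjusted p = 0.372). Lhfpl5 rose by 0.43 (SE 0.139) between Q140 and wild type, the only call of the 11 there, against 19.9% of all genes. Of 11 other villin and gelsolin genes, Dmtn, an actin-bundling protein of the membrane skeleton, fell by 0.29 on Msh3+/- (SE 0.0416, edgeR adjusted p = 6.40e-06), and Flii rose by 0.12 (SE 0.038, edgeR adjusted p = 0.0459). These were 2 calls of 11, and only 1 of the family was called in most of the alternative fits. Of 37 other Ankrd genes tested, 2 rose and 2 fell on Msh3+/-: Ankrd27 at 0.13 (SE 0.0295), Ankrd24 at 0.20 (SE 0.0482), Ankrd63 at -0.18 (SE 0.0486) and Ankrd50 at -0.13 (SE 0.0425). The 4 calls were 2 with plate column or plate row as a covariate, 2 without the 3 libraries highest in choroid plexus markers, 7 with library totals in place of TMM and 8 by limma on FPKM. All 4 were smaller in log2 size than the fall of Ankrd35 on any background. The counts on Msh3-/-, where 0.0751% of all genes were called, were 0 in all 3 families.

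Of 66 tested genes within 500 kb of the 4, 3.03% were called on Msh3+/-, against 6.45% of all genes. None of 12 neighbours of Tmc3 and none of 3 neighbours of Htr2c was called. Near Vill, Gm2415 of 15 neighbours fell by 0.31 (SE 0.0958), and near Ankrd35, Rbm8a, an RNA-binding protein of the exon junction complex, rose by 0.12 (SE 0.0336) out of 36; both were named after their values were seen. None of these neighbours was called on Msh3-/-, where 0.0751% of all genes were called.

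The 4 genes were closely related in level across the groups, which follows from choosing each for its change with Q140. Within the groups they were weakly related. Over the 48 libraries, log2 CPM of the 3 risers correlated with each other at r from 0.69 to 0.77 and with Ankrd35 at r from -0.81 to -0.90. After the means of group and sex were removed, the correlations among the 4 ran from -0.37 to 0.23. The genes most like Ankrd35 over the 48 libraries were Rps6ka4 (r = 0.95), Scn4b (0.94), a sodium channel subunit and marker of medium spiny neurons, and Plk5 (0.93). Those most like Htr2c were Ildr2 (0.88), Sh3bgrl (0.86) and Lrrn3 (0.84). Those most like Vill were Npr2 (0.85), a natriuretic peptide receptor, Trpm2 (0.84) and Nagk (0.83). Those most like Tmc3 were Echdc2, Polr2a and Cd200 (each 0.82). With the means of group and sex removed, Rps6ka4 was still the closest to Ankrd35 (0.69), followed by Myh7b (0.67) and Napa (0.65), and Ildr2 was still among the closest to Htr2c (0.66), beside Tmem209 (0.73) and Adgrg2 (0.66). For Vill they were Tagap1 (0.60), Tbkbp1 (0.58) and Trappc3 (0.56), and for Tmc3 Kif5a, Evi2a and Sccpdh (each 0.70). These genes were ranked out of all tested, and each pair of values comes from 1 library, so shared depth and tissue make-up enter every r.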

How the data were processed

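Striatal RNA of 48 libraries was compared in 6 genotype groups, taken with sex and replicate number from the labels. The authors deposited whole-number counts per gene (STAR 2.7.5c, SAMtools 1.10, HTSeq 0.12.3; GRCm38 and mm10, per the submitters' processing notes), with no scaling between libraries, and FPKM, which are the same deposited counts divided by a gene length and the library total. The gene annotation, the definition of length and whether strand was used are not given in the sources used here. Totals of 33.7 to 52.8 M counts limit precision mainly for weakly expressed genes such as Tmc3.

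An edgeR 4.0.16 model (R 4.3.3) covered all libraries (filterByExpr with a minimum count of 10, TMM, robust glmQLFit on group with sex as covariate, two-sided glmQLFTest, Benjamini-Hochberg over 19975 genes). CPM use the TMM-scaled totals; correlations use log2 CPM with a prior count of 2. The difference between the sexes came from a fit with 1 mean per group and sex. Intervals are 95% intervals of the fitted log2 difference.

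The 4 genes and the lists of related and marker genes were chosen with earlier results of these data known. Most genes other than the 4 were named by rule: Msh3, the 3 genes most like each of the 4 by Pearson's r (average log2 CPM of at least 0, no clone names), and up to 4 called genes of each related list by smallest p, or up to 2 where none was called; a gene that the rule would name is not reported here. The genes nearest outside the threshold, the antisense Gm16638, and Htr4, Gm2415 and Rbm8a stand outside the rule. Alternatives were RLE scaling, DESeq2 1.42.0, other count filters, no sex covariate, only the groups compared, a replicate block, plate column or row as covariate, limma 3.58.1 on log2(FPKM + 0.1) and log2(FPKM + 1) for genes with 0.5 FPKM or more in 7 libraries, and each library left out. Leaving out the libraries highest in choroid plexus or cortical markers, or a pair that shares a stem in its animal codes, was added after seeing the data, as were library totals in place of TMM and limma-voom with the stem as a random block. No pair of libraries within a group was identical. Positions come from GENCODE M21 and promoters from RefSeq on GRCm38.p6, both found for all 4 genes.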

Additional observations from a re-analysis of the deposited data

Results flagged for a closer look

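Ankrd35 in Q140 M4 was 9.61 CPM, the highest of the 8 Q140 libraries and separated from the others by more than most of their own range. It was the only such library among the 24 combinations of gene and group looked at. How often chance alone sets 1 apart was not computed, so chance is not excluded. The same library was the lowest of its group for Tmc3 (1.72 CPM), Vill (6.94 CPM) and Htr2c (87.8 CPM). For all 4 genes it was therefore the Q140 library nearest to the wild type range, and it also had the highest summed level of shared medium spiny neuron markers in its group, 18258 CPM. Why it stands apart was not tested.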

How the results depend on the processing

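All 4 genes kept their direction and passed the threshold between Q140 Msh3+/- and Msh3+/- in every alternative in which they could be tested. The log2 difference ranged from 0.67 to 0.81 for Tmc3, 0.37 to 0.68 for Vill, 0.41 to 0.50 for Htr2c and -0.76 to -0.50 for Ankrd35, with largest adjusted p of 0.0102, 0.000301, 0.000829 and 2.87e-06. Tmc3 lay under the FPKM filter, so limma on FPKM tested 3 of the 4 and called 3. The number of genes called in that comparison, 1289, was 553 with plate row as a covariate, 2209 with library totals in place of TMM, 2188 by limma on log2(FPKM + 0.1) and 2177 on log2(FPKM + 1). With single libraries left out it ran from 980 to 1366. The cause of these shifts was not tested. The replicate numbers do not pair the libraries: same-numbered libraries correlated at r from -0.071 to 0.071 over 8 pairs, none correlated best with its own number, and the replicate block gave 1006 genes and all 4 of these, at 0.78 for Tmc3, 0.65 for Vill, 0.44 for Htr2c and -0.69 for Ankrd35. The descriptive changes on the other backgrounds kept their sign in all alternatives, from 0.65 to 0.70 for Tmc3, 0.46 to 0.51 for Vill, 0.38 to 0.42 for Htr2c and -0.45 to -0.36 for Ankrd35 on Msh3-/-. Depth limits Tmc3 most, with 38 to 181 reads per library. The labels fix genotype only, repeat length was not analysed here, and the Msh3 genotype could not be checked from counts.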

Other observations

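In Q140 Msh3-/- mice the females lay farther from the controls than the males for 3 of the 4 genes, a pattern noticed in the values and given without a test because these libraries chose the genes. Vill was 6.597 ± 0.400 CPM in females and 5.14 ± 0.496 CPM in males (SD, n = 4 each), with ranges of 6.04 to 6.97 and 4.41 to 5.52. Ankrd35 was 11.3 ± 1.45 CPM in females and 13.8 ± 0.848 CPM in males, with ranges of 9.45 to 12.5 and 12.7 to 14.6. Neither pair of ranges overlapped. Tmc3 was 2.15 ± 0.459 CPM in females and 1.87 ± 0.305 CPM in males, with overlapping ranges, and Htr2c was 72.4 ± 8.90 CPM in females and 81.3 ± 5.29 CPM in males. In Msh3-/- mice without Q140 the sexes overlapped for Vill, at 4.24 ± 0.680 and 4.16 ± 0.585 CPM, and for Ankrd35, at 15.9 ± 1.29 and 16.7 ± 0.389 CPM.

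The animal codes of the 48 libraries hold 27 stems, of which 13 occur in more than 1 group and cover 32 libraries. Q140 M4 and Q140 Msh3+/- M4 share one of these stems and were singled out after their values were seen. Q140 F4, of another shared stem, was for Vill the highest of its group at 10.6 CPM. Q140 Msh3+/- M4 was the lowest of its group for Tmc3 (1.80 CPM) and Vill (5.57 CPM), was at 86.3 CPM for Htr2c and 11.7 CPM for Ankrd35, and had the highest summed level of shared medium spiny neuron markers in its group, 19775 CPM. Without both libraries the tested log2 differences were 0.77 for Tmc3, 0.66 for Vill, 0.47 for Htr2c and -0.74 for Ankrd35. With the stem as a random block in limma-voom they were 0.74, 0.63, 0.45 and -0.73 in the same order, all past the threshold. What the stem records is not stated in the labels.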
